A study of Homo sapiens with 8 samples.

Results

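The 10 genes FOS, FOSB, FOSL1, FOSL2, JUN, JUNB, JUND, EGR1, EGR3 and DUSP1, transcription factors of the FOS, JUN and EGR families with one phosphatase of their signalling pathway, were taken by symbol from the 23228 genes listed. All 10 were found, and 9 passed the filter on low counts that kept 13498 genes for testing; EGR3 did not. They were measured by RNA sequencing in ES2, a human ovarian cancer cell line. The study asked how inhibition of KDM1A, a demethylase of histone H3, bears on the action of oestrogen receptor beta. There were 4 groups of 2 libraries: control ES2 cells with vehicle, control cells with LY500307, an agonist of that receptor, KDM1A knockout cells with vehicle and knockout cells with LY500307, the agonist at 5 µM and every treatment for 48 h. All groups were grown in serum-containing medium. The labels name neither the edited site of KDM1A nor whether the knockout population is 1 clone, so a difference between the populations cannot be told apart from one between clones.

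FOS-family proteins pair with JUN-family proteins to form the transcription factor AP-1, which binds DNA at AP-1 and cyclic AMP response elements. FOS, FOSB, JUN, JUNB and EGR1 are classical immediate early genes: growth factors, serum or stress raise their transcription quickly and briefly, through MAP kinases, the serum response factor with its ternary complex partners, and CREB. FOSL1 and FOSL2 lack the strong activation domain of FOS and, in many carcinoma cells, are expressed steadily. EGR1 and EGR3 are zinc finger factors of GC-rich sites. DUSP1 encodes a phosphatase that removes phosphate from MAP kinases and is itself an early response gene.

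Libraries held between 24348937 and 30131097 gene counts. Levels are CPM, counts scaled to the TMM-adjusted library size, and "rose" or "fell" means an adjusted p under 0.05 (edgeR quasi-likelihood, two-sided, Benjamini-Hochberg over all genes tested). KDM1A, the targeted gene, was at 220 and 219 CPM in vehicle-treated control libraries, 238 and 241 in LY500307-treated control libraries, 75.6 and 77.8 in vehicle-treated knockout libraries and 72.0 and 71.6 in LY500307-treated knockout libraries; counts cover the whole gene. KRT7, KRT18 and VIM were abundant in every library, at 252 CPM or more, 141 or more and 7383 or more, whereas the ovarian tumour markers MUC16 and MSLN did not pass 0.0853 CPM and PAX8 and WT1 lay between 1.12 and 7.23 CPM. EPCAM was low throughout and highest in vehicle-treated control replicate 2 (2.13 CPM, at most 0.853 elsewhere). Of 6 fibroblast markers, DCN, LUM and COL3A1 were under 2.5 CPM, while COL1A1 and PDGFRA made up nearly all of the list's sum, 1158 to 1317 CPM in control libraries and 148 to 238 CPM in knockout libraries. Of 8 haematopoietic markers CD3E, HBB and CD53 had no count and CD68 made up nearly all of the sum, which was 96.9 to 112 CPM in control and 63.0 to 75.6 CPM in knockout libraries. Of 6 endothelial markers CLDN5 had no count and CDH5 made up most of the sum, 83.1 to 106 CPM in control and 26.7 to 32.9 CPM in knockout libraries. The part of these lists in the results below was not tested. In bulk RNA, fewer cells of a type and less RNA per cell cannot be told apart. The labels describe the duplicates as sequencing runs, and p-values therefore cover the spread of these libraries alone, possibly a technical one. Groups of 2 libraries can also fail to overlap without any change, and the share of all tested genes without overlap was not computed.

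As described below, FOS, FOSB, EGR1, JUNB and JUND rose in knockout cells under both treatments. JUN responded differently to LY500307 in the 2 populations, and DUSP1 rose with LY500307 in both. Leaving out JUNB and JUND, the promoters of 5 of these members are shown. Each is the 250 bases before the RefSeq transcription start, read 5′ to 3′ on the strand of the gene and found at 1 place in hg19: FOS at chr14:75745281-75745530 (plus), FOSB at chr19:45971004-45971253 (plus), EGR1 at chr5:137800918-137801167 (plus), JUN at chr1:59249720-59249969 (minus) and DUSP1 at chr5:172198199-172198448 (minus). Capitals mark matches on either strand to TGACGT, TGACNTCA, the CArG box of the serum response factor, the EGR motif GCGNGGGCG or TATAAA; the AP-1 motif TGANTCA was also searched.
FOS: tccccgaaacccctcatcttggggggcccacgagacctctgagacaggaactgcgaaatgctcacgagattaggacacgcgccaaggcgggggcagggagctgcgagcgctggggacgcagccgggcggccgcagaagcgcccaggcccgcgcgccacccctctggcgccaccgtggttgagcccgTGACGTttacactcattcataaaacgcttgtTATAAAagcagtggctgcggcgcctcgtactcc
FOSB: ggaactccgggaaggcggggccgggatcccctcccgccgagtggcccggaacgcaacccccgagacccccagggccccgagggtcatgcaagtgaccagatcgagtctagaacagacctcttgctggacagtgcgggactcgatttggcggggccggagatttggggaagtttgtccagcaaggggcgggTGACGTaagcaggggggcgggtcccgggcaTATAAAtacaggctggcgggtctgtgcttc
EGR1: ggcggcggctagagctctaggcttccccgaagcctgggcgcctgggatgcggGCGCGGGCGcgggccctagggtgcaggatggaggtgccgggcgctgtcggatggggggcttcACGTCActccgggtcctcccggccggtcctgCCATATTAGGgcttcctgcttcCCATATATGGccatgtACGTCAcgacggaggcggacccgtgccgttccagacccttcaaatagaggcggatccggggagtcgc
JUN: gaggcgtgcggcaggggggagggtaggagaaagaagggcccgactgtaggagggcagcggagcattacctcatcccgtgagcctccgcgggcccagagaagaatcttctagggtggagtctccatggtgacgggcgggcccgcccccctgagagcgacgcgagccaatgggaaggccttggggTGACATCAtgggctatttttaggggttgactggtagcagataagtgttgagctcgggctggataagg
DUSP1: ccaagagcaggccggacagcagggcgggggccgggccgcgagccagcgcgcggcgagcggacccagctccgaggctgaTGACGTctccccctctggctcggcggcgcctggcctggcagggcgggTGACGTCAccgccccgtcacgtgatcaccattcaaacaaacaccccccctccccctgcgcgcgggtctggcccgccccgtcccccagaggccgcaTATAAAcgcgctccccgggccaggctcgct

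Of the members, 8 had a promoter that matched in the RefSeq table. TGACGT was found in 6 of them (FOS, FOSB, FOSL2, JUND, EGR1 and DUSP1), against 7.10% of the 35116 promoters of that length in the table. Its first base lay 64 bases before the start in FOS and 60 in FOSB, and the matched bases 67 to 62 before the start in EGR1. TGACNTCA, which overlaps TGACGT where both are read in TGACGTCA, was found in JUN (as TGACATCA, 67 to 60 bases before the start), JUND and DUSP1, against 6.87% of promoters. Within the 250 bases searched, EGR1 alone of the 8 held the CArG box, with 2 matches at 105 to 96 and 83 to 74 bases before the start. EGR1 alone also held the EGR motif. The CArG box and the EGR motif were in 1.16% and 8.41% of promoters. Bases further upstream were not searched, so a motif missing here may lie there. TATAAA stood in FOS, FOSB, JUNB and DUSP1, with a background of 10.7%. TGANTCA was in none of the 8 windows and in 6.57% of promoters. These are matches of letters and do not show that a factor binds.

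In vehicle, 5 of the 9 tested members were higher in knockout than in control cells (FOS, FOSB, JUNB, JUND and EGR1) and 2 were lower (JUN and DUSP1), while FOSL1 and FOSL2 did not pass. Across all tested genes 64.0% passed this comparison, 30.7% higher and 33.3% lower, so a share of members near this level is no result about them. The median log2 change was 0.65 over the tested members and -0.01 over all tested genes. FOS and FOSB, the strong activators of the FOS family, moved most.

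FOS had a level of 3.33 and 2.94 CPM in the vehicle-treated controls and of 7.86 and 8.56 CPM in the knockout libraries. Both knockout libraries were above both control libraries, at 2.62-fold (95% interval 2.11 to 3.26, edgeR adjusted p = 1.04e-09). FOSB went from 5.63 and 5.80 to 11.7 and 12.8 CPM, again with no overlap (2.14-fold, interval 1.80 to 2.55, edgeR adjusted p = 1.43e-09). The zinc finger factor EGR1 was at 44.1 and 44.2 CPM in control and 71.9 and 82.6 CPM in knockout libraries. It was thus 1.75-fold higher (interval 1.58 to 1.94, edgeR adjusted p = 6.51e-12), and its replicate 2 in knockout was the higher of the pair.

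Of the JUN family, JUNB and JUND rose while JUN did not. JUNB, a weaker activator than JUN at many sites, was at 16.0 and 15.4 CPM in control and 30.3 and 25.6 CPM in knockout libraries (1.77-fold, interval 1.55 to 2.03, edgeR adjusted p = 3.67e-09). JUND, the member usually least dependent on stimulation, was at 21.7 and 25.9 against 36.6 and 38.3 CPM (1.57-fold, interval 1.39 to 1.78, edgeR adjusted p = 4.69e-08). Neither gene's groups overlapped. JUN was at 394 and 403 CPM in control and 381 and 355 CPM in knockout libraries, a log2 change of -0.12 (interval -0.21 to -0.02, edgeR adjusted p = 0.0257). That small call was lost without replicate 2 of the vehicle-treated controls (adjusted p = 0.138) or of the knockouts (adjusted p = 0.317), with DESeq2 (adjusted p = 0.0628) and with scaling by library totals (log2 -0.07, adjusted p = 0.177).

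FOSL1 and FOSL2 showed no difference beyond their spread in vehicle. FOSL1 was at 630 and 620 CPM in control and 588 and 631 CPM in knockout libraries, so the groups overlapped, with a log2 change of -0.04 (interval -0.12 to 0.05). FOSL2 was at 142 and 149 against 137 and 143 CPM, also overlapping, with a log2 change of -0.05 (interval -0.16 to 0.06). The intervals thus allow changes of up to 1.04-fold upward in either gene, and downward to 0.9178-fold in FOSL1 and 0.8925-fold in FOSL2. DUSP1, the MAP kinase phosphatase, fell from 94.6 and 101 to 81.6 and 83.6 CPM, a log2 change of -0.25 (interval -0.36 to -0.13, edgeR adjusted p = 0.000208).

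**Figure D1:**
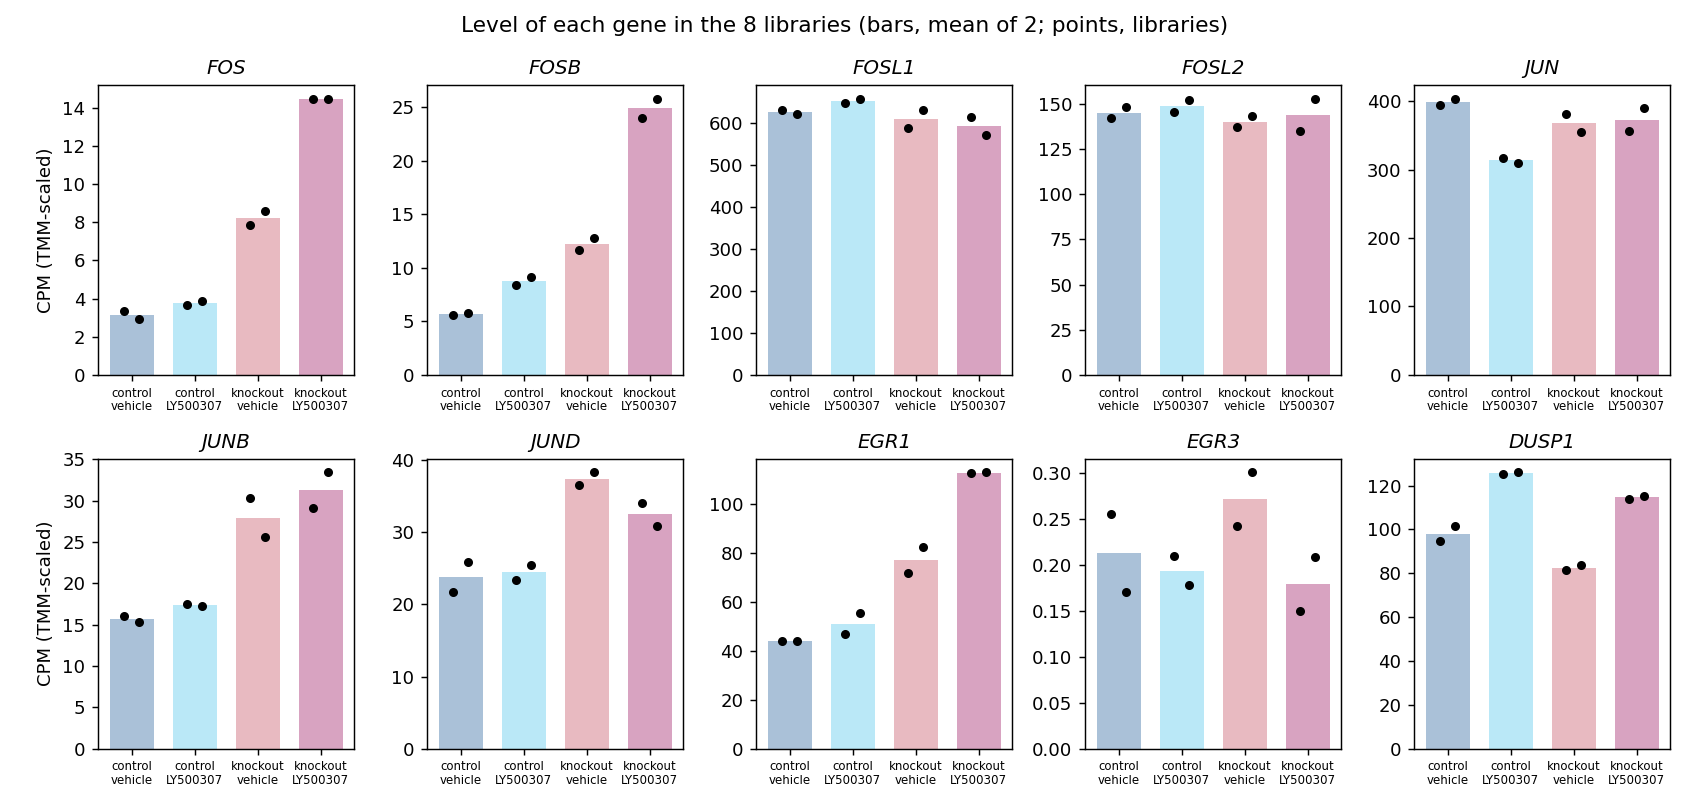
Level of each of the 10 genes in every library, in TMM-scaled CPM on a linear axis from 0 with a scale of its own per gene; bars are means of 2 libraries and points are the libraries. FOS, FOSB and EGR1 are lowest in vehicle-treated control cells and highest in LY500307-treated knockout cells, JUN is lowest in LY500307-treated control cells (317 and 309 CPM), and EGR3 stays at or under 0.301 CPM in each library.

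Under LY500307, the knockout and control populations differed in 8 of the 9 tested members: 6 were higher (FOS, FOSB, JUN, JUNB, JUND and EGR1) and 2 lower (FOSL1 and DUSP1). Of all tested genes 66.2% passed, 32.6% higher and 33.6% lower. FOS was at 3.67 and 3.85 CPM in treated control and 14.4 and 14.5 CPM in treated knockout libraries (3.84-fold, interval 3.18 to 4.64, edgeR adjusted p = 8.13e-15). FOSB went from 8.35 and 9.13 to 24.0 and 25.8 CPM (2.85-fold, interval 2.46 to 3.29, edgeR adjusted p = 6.61e-15). EGR1 was 2.21-fold higher (interval 2.00 to 2.43, edgeR adjusted p = 2.06e-16), at 112.5 and 112.8 CPM in knockout against 46.8 and 55.3 CPM in control libraries. For each of the 3 genes the knockout libraries lay above both control libraries.

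JUNB was 1.80-fold higher in treated knockout than in treated control cells (interval 1.58 to 2.05), at 29.1 and 33.4 against 17.5 and 17.3 CPM. JUND was 1.33-fold higher (interval 1.18 to 1.50), at 34.1 and 30.9 against 23.5 and 25.5 CPM. JUN, at 356 and 390 against 317 and 309 CPM, was 1.19-fold higher (interval 1.12 to 1.27, edgeR adjusted p = 1.40e-05), the opposite sign to its change in vehicle. Under LY500307 both knockout libraries lay above both control libraries in each of the 3 JUN genes. FOSL1 fell slightly, from 646 and 657 to 614 and 571 CPM (log2 -0.14, edgeR adjusted p = 0.00526), a call lost without LY500307-treated control replicate 2 (adjusted p = 0.0534) or knockout replicate 2 (adjusted p = 0.109). FOSL2 was at 145 and 152 CPM in control and 135 and 153 CPM in knockout libraries, which overlapped (log2 -0.05, interval -0.16 to 0.06). Without LY500307-treated knockout replicate 2, FOSL2 passed the test as lower (log2 -0.14, edgeR adjusted p = 0.0395). DUSP1 was at 126 and 126 CPM in control and 114 and 115 CPM in knockout libraries, with a log2 change of -0.13 (edgeR adjusted p = 0.0253). That call for DUSP1 was lost without either treated control library (adjusted p = 0.0765 and 0.0944), without treated knockout replicate 1 (adjusted p = 0.0871) and with scaling by library totals (adjusted p = 0.0896).

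LY500307 changed 4 of the 9 tested members in control cells: FOSB, EGR1 and DUSP1 rose and JUN fell. In all, 26.3% of tested genes passed this comparison, 12.3% higher and 14.0% lower; scaled by library totals instead, 2831 genes passed as higher and 1011 as lower, against 1665 and 1885 with TMM. FOSB rose 1.53-fold (interval 1.28 to 1.83, edgeR adjusted p = 0.000565), from 5.63 and 5.80 to 8.35 and 9.13 CPM. DUSP1 rose 1.28-fold (interval 1.19 to 1.38, edgeR adjusted p = 6.37e-06), from 94.6 and 101 to 126 and 126 CPM. JUN fell by 0.35 on the log2 scale (interval -0.44 to -0.25, edgeR adjusted p = 1.01e-06), from 394 and 403 to 317 and 309 CPM. In these 3 genes the treated and vehicle libraries did not overlap, and the calls held in all 14 alternative analyses, library totals included.

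The rise of EGR1 in control cells was small. EGR1 was at 44.1 and 44.2 CPM with vehicle and 46.8 and 55.3 CPM with LY500307, 1.16-fold higher (interval 1.04 to 1.28, edgeR adjusted p = 0.0334). The log2 change was 0.21, and it was 0.08 without LY500307-treated control replicate 2 (adjusted p = 0.551). The call was also lost, with the log2 change still at 0.21, without either vehicle-treated control (adjusted p = 0.114 and 0.112) and with DESeq2 (adjusted p = 0.0618). FOS did not pass, at 3.33 and 2.94 CPM with vehicle and 3.67 and 3.85 CPM with LY500307 (log2 0.26, interval -0.09 to 0.61, edgeR adjusted p = 0.278). JUNB (log2 0.15, interval -0.06 to 0.36), JUND (0.04, -0.14 to 0.22), FOSL1 (0.06, -0.03 to 0.15) and FOSL2 (0.03, -0.08 to 0.15) did not pass either. In FOS, JUNB and FOSL1 both LY500307-treated control libraries nevertheless lay above both vehicle-treated ones. FOSL1 passed as higher when libraries were scaled by their totals (log2 0.13, edgeR adjusted p = 0.0177).

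In knockout cells LY500307 raised 4 of the 9 tested members, FOS, FOSB, EGR1 and DUSP1, and the other 5 did not pass. Of all tested genes 20.4% passed, 9.16% higher and 11.3% lower; with library totals 2288 passed as higher and 953 as lower, against 1237 and 1522 with TMM. FOSB was 2.03-fold higher with LY500307 (interval 1.77 to 2.34, edgeR adjusted p = 2.28e-09), at 24.0 and 25.8 against 11.7 and 12.8 CPM. FOS was 1.76-fold higher (interval 1.48 to 2.08, edgeR adjusted p = 6.33e-06), at 14.4 and 14.5 against 7.86 and 8.56 CPM. EGR1 was 1.46-fold higher (interval 1.33 to 1.60, edgeR adjusted p = 2.80e-07) and DUSP1 1.39-fold higher (interval 1.29 to 1.50, edgeR adjusted p = 7.85e-08). In each of the 4 genes both treated libraries lay above both vehicle libraries, and the calls held in all 14 alternative analyses.

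JUN did not differ between LY500307 and vehicle in knockout cells beyond its spread: 381 and 355 CPM with vehicle overlapped 356 and 390 CPM with LY500307 (log2 0.02, interval -0.07 to 0.12). JUND was at 36.6 and 38.3 CPM with vehicle and 34.1 and 30.9 CPM with LY500307 (log2 -0.21, interval -0.37 to -0.04), which did not pass after adjustment (edgeR adjusted p = 0.0731). With a replicate block JUND passed as lower (log2 -0.20, edgeR adjusted p = 0.0426). JUNB, at 30.3 and 25.6 against 29.1 and 33.4 CPM, overlapped between treatments (log2 0.17, interval -0.01 to 0.35). FOSL1 (log2 -0.04, interval -0.13 to 0.04) and FOSL2 (0.04, interval -0.07 to 0.15) did not pass. The plot of fitted changes sets the 4 comparisons side by side; those that share a group of libraries are not independent of each other.

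**Figure D2:**
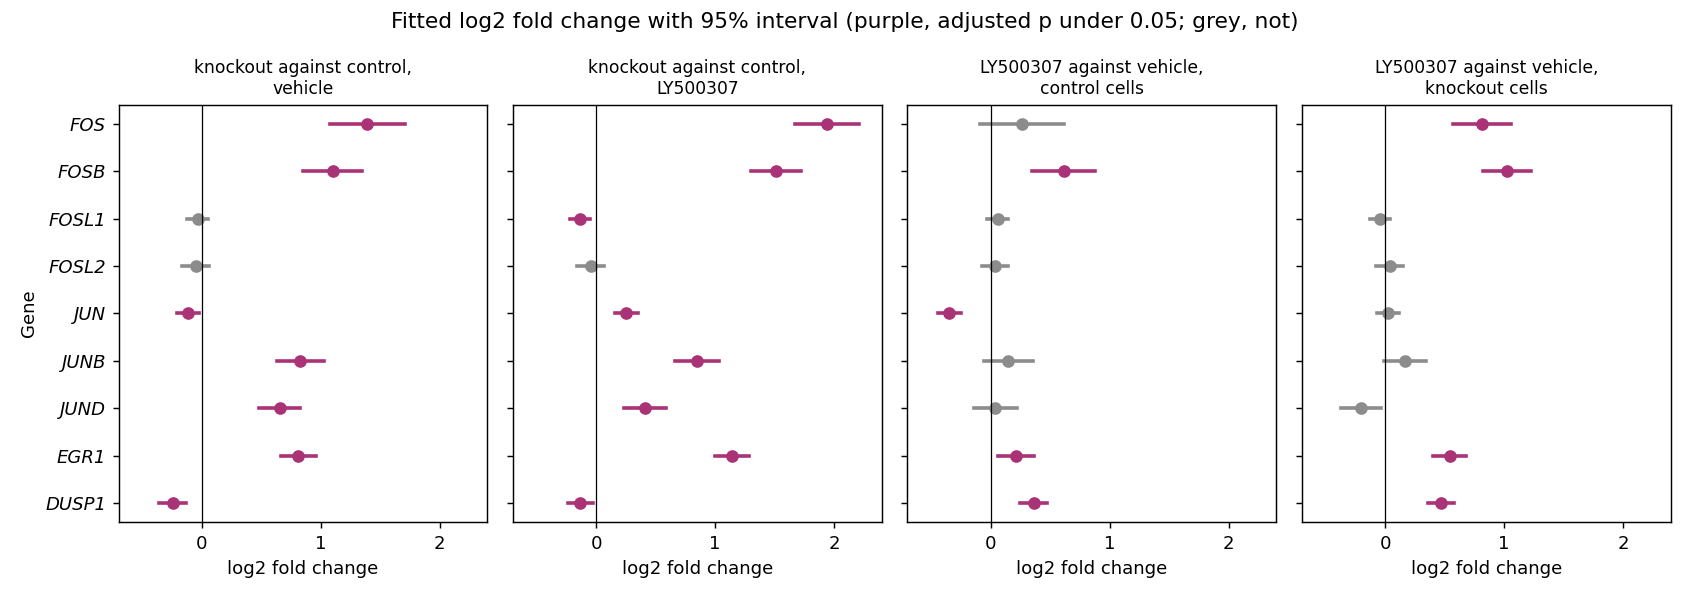
Fitted log2 fold change of the 9 tested genes (vertical axis) in each of 4 comparisons, with 95% intervals; purple marks an adjusted p under 0.05 in edgeR's quasi-likelihood test and grey the rest. FOS, FOSB and EGR1 lie right of 0 in the 4 panels, with FOS not past the threshold for LY500307 in control cells (0.26), and JUN changes side between panels, from -0.35 for LY500307 in control cells to 0.25 for knockout under LY500307.

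Whether LY500307 acted differently in knockout and control cells was tested with the interaction term. JUN was the 1 member of 9 that passed, against 1.62% of all tested genes (0.526% higher and 1.09% lower). Its change with LY500307 was higher in knockout than in control cells by 0.37 on the log2 scale (SE 0.07, interval 0.24 to 0.50, edgeR adjusted p = 0.000966). Both treated control libraries of JUN, at 317 and 309 CPM, lay below the other 6, which ran from 355 to 403 CPM. For FOS (0.55, interval 0.12 to 0.98, edgeR adjusted p = 0.201), FOSB (0.41, interval 0.08 to 0.74, edgeR adjusted p = 0.219) and EGR1 (0.33, interval 0.13 to 0.53, edgeR adjusted p = 0.0821) the interaction was positive but did not pass. A different response of these 3 genes in the 2 populations was thus not shown, although LY500307 raised FOS past the threshold in knockout cells and not in control cells. EGR1 passed the interaction test with no filter on low counts (edgeR adjusted p = 0.0308) and with a replicate block (log2 0.34, edgeR adjusted p = 0.0124). Its log2 interaction was 0.44 without vehicle-treated knockout replicate 2 and 0.46 without LY500307-treated control replicate 2.

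EGR3, a zinc finger relative of EGR1, was near the detection limit, with 10 counts over the 2 vehicle-treated control libraries (exact Poisson 95% interval 4.79 to 18.4, counting error only), 15 over the vehicle-treated knockout, 11 over the LY500307-treated control and 10 over the LY500307-treated knockout libraries. Tested with no filter on low counts, among 17708 genes, it did not pass in any comparison, and its log2 interval for knockout in vehicle ran from -1.24 to 1.96. No difference in EGR3 was detected, and intervals of this width allow changes of several-fold.

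Between genes, levels were compared per kilobase of exonic length. In vehicle-treated control cells the order was FOSL1 at 331 ± 3.8 (SD, n = 2) CPM per kb, JUN at 110 ± 1.8, DUSP1 at 48.7 ± 2.4, FOSL2 at 20.3 ± 0.64, EGR1 at 14.1 ± 0.014, JUND at 12.4 ± 1.5, JUNB at 8.58 ± 0.26, FOSB at 1.03 ± 0.023, FOS at 0.984 ± 0.085 and EGR3 at 0.0424 ± 0.012. FOS and FOSB overlapped between libraries and so had no order. In LY500307-treated knockout cells FOSL1 (314 ± 16), JUN (103 ± 6.5) and DUSP1 (56.9 ± 0.50) still led. EGR1, at 35.9 ± 0.071 CPM per kb, stood above FOSL2 (20.1 ± 1.8) there, and FOS and FOSB reached 4.54 ± 0.0049 and 4.48 ± 0.23. JUNB (17.1 ± 1.6) and JUND (16.9 ± 1.2) overlapped in that group.

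FOSL1 dominated the FOS-family transcripts in each group, and FOS with FOSB were a small share that grew. FOSL1 made up 93.7% ± 0.22 (SD, n = 2) of the summed FOS-family level per kb in vehicle-treated control cells, 93.0% ± 0.085 in vehicle-treated knockout, 93.6% ± 0.13 in LY500307-treated control and 91.5% ± 0.94 in LY500307-treated knockout cells. The share of FOS went from 0.278% ± 0.021 in vehicle-treated control to 0.742% ± 0.0092 in vehicle-treated knockout and 1.32% ± 0.055 in LY500307-treated knockout cells, and that of FOSB from 0.291% ± 0.0091 to 0.633% ± 0.010 and 1.31% ± 0.12. In every knockout library the shares of FOS and of FOSB lay above those in every control library. Among the JUN genes, JUN held 84.0% ± 0.61 in vehicle-treated control, 79.6% ± 0.76 in LY500307-treated control, 74.5% ± 0.29 in vehicle-treated knockout and 75.2% ± 0.93 in LY500307-treated knockout cells. The share of JUNB was 6.55% ± 0.35 in vehicle-treated control and 11.2% ± 0.83 in vehicle-treated knockout cells, and 8.76% ± 0.026 and 12.5% ± 0.57 with LY500307. That of JUND was 9.42% ± 0.96 and 14.3% ± 1.1 in vehicle, whereas with LY500307 control (11.1% and 12.2%) and knockout libraries (13.4% and 11.3%) overlapped. The shares are of RNA and depend on the gene lengths used; those of FOSL1 by counts alone were 76.4% to 80.2%.

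**Figure D3:**
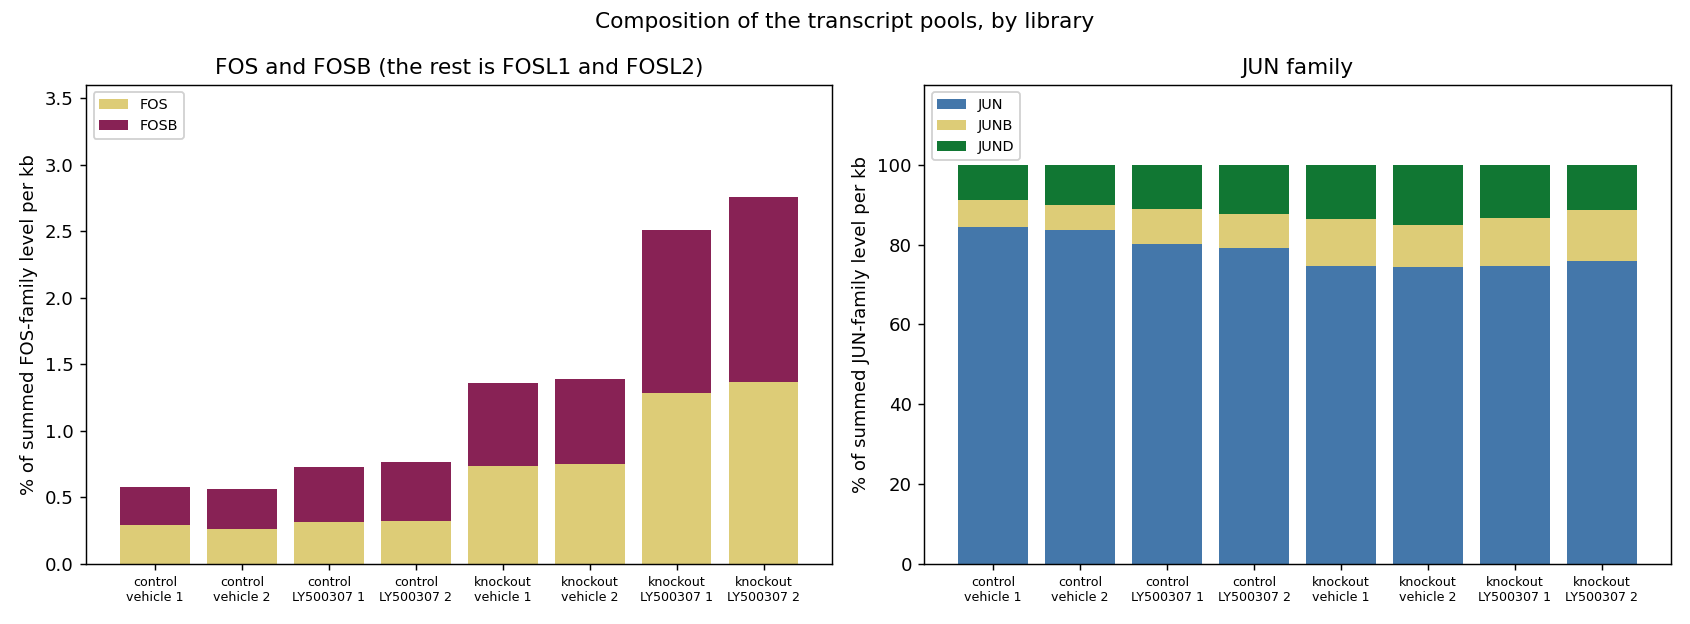
Share of each gene in the summed level per kb of its family, in percent, for each of the 8 libraries; the left panel shows FOS and FOSB on an enlarged axis, the rest of that family being FOSL1 and FOSL2, and the right panel shows JUN, JUNB and JUND from 0 to 100%. FOS and FOSB together are highest in the LY500307-treated knockout libraries, and JUN is highest in the vehicle-treated control libraries (84.5% and 83.6%).

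The members lie in different parts of the genome (GENCODE release 44 lifted to hg19): FOS on chromosome 14 (75745529 to 75748933), FOSB (45971253 to 45978437), JUNB (12902300 to 12904129) and JUND (18390504 to 18392432) on chromosome 19, FOSL1 on chromosome 11 (65659520 to 65668044), FOSL2 on chromosome 2 (28615315 to 28640184), JUN on chromosome 1 (59242517 to 59249720), and EGR1 (137801168 to 137804992) and DUSP1 (172195099 to 172198198) on chromosome 5. The changes of the other tested genes within 5 Mb were set beside each member. In vehicle the median log2 change of neighbours was 0.28 for FOS (57 genes), -0.17 for FOSB (181 genes) and -0.11 for EGR1 (103 genes), against 1.39, 1.10 and 0.81 for the genes themselves, each above the upper quartile of its neighbours (0.52, 0.11 and 0.48). JUNB at 0.83 was above its neighbours' upper quartile of 0.62 (162 genes), whereas JUND at 0.65 lay within the quartile range of its 112 neighbours (0.12 to 0.77). JUN, at -0.12, lay below the lower quartile of its 29 neighbours (0.13), whose median was 0.28. DUSP1 at -0.25 lay within the range of its 50 neighbours (-0.73 to -0.18), whose median was -0.44.

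**Figure D4:**
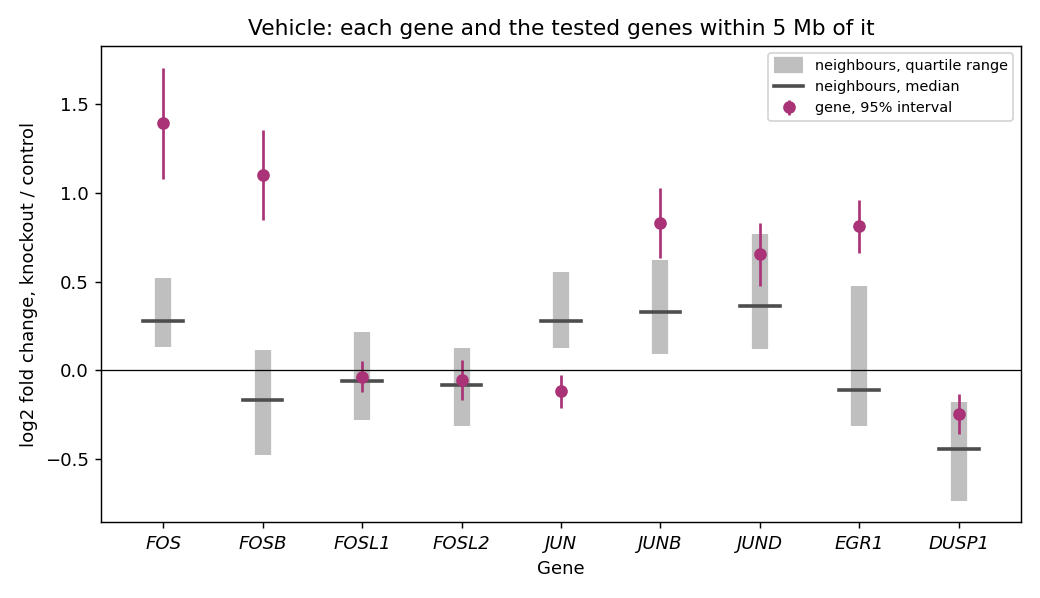
Log2 fold change of knockout against control in vehicle for the 9 tested genes (points, with 95% intervals) and for the other tested genes within 5 Mb of each (grey bars, quartile range; dark lines, median). FOS, FOSB, JUNB and EGR1 lie above the grey bars, JUN below its bar, and FOSL1, FOSL2, JUND and DUSP1 within theirs.

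Some members share their place with a gene on the other strand. The overlap was taken over whole gene spans, introns included, and shared exonic bases were not measured. Without a stated strand setting for the counts, reads from bases that are exonic in both genes of a pair could not be told apart. FOSB lies wholly within ERCC1 (7185 shared bases), whose log2 change with knockout was 0.21 in vehicle and 0.03 under LY500307. JUNB lies wholly within HOOK2 (1830 shared bases). HOOK2 had a log2 change with knockout of 0.84 in vehicle and 0.33 under LY500307, beside 0.83 and 0.85 for JUNB. FOSL2, EGR3 and DUSP1 overlap long noncoding RNAs on the other strand, and FOSL2 a further one on its own strand (296 shared bases), none of which was matched by symbol among the genes analysed here.

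Other immediate early genes were read from a list of 32, of which 30 were tested. With knockout in vehicle, 18 were higher and 5 lower, beside 30.7% and 33.3% of all tested genes, with a median log2 change of 0.35 (all tested genes, -0.01). Under LY500307 the counts were again 18 and 5, beside 32.6% and 33.6%, with a median of 0.48 (all tested genes, -0.01). ZFP36L1, which promotes decay of AU-rich mRNAs, rose from 136 ± 6.4 to 357 ± 5.9 CPM (SD, n = 2) and IER3, a stress-induced survival gene, from 92.3 ± 0.39 to 142 ± 3.5 CPM. CTGF, a matricellular growth factor, fell from 1536 ± 31 to 585 ± 0.44 CPM and ZFP36L2, a relative of ZFP36L1, from 67.2 ± 1.2 to 37.1 ± 0.27 CPM. With LY500307 in control cells 8 rose and 8 fell, beside 12.3% and 14.0% of all tested genes (median 0.00). BTG1, an antiproliferative gene, rose from 91.9 ± 4.0 to 125 ± 0.27 CPM and IER3 to 118 ± 5.7 CPM, while MCL1, an inhibitor of apoptosis, fell from 644 ± 4.6 to 494 ± 6.9 CPM. In knockout cells 8 rose and 5 fell with LY500307, beside 9.16% and 11.3% of all tested genes (median 0.09).

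**Figure D5:**
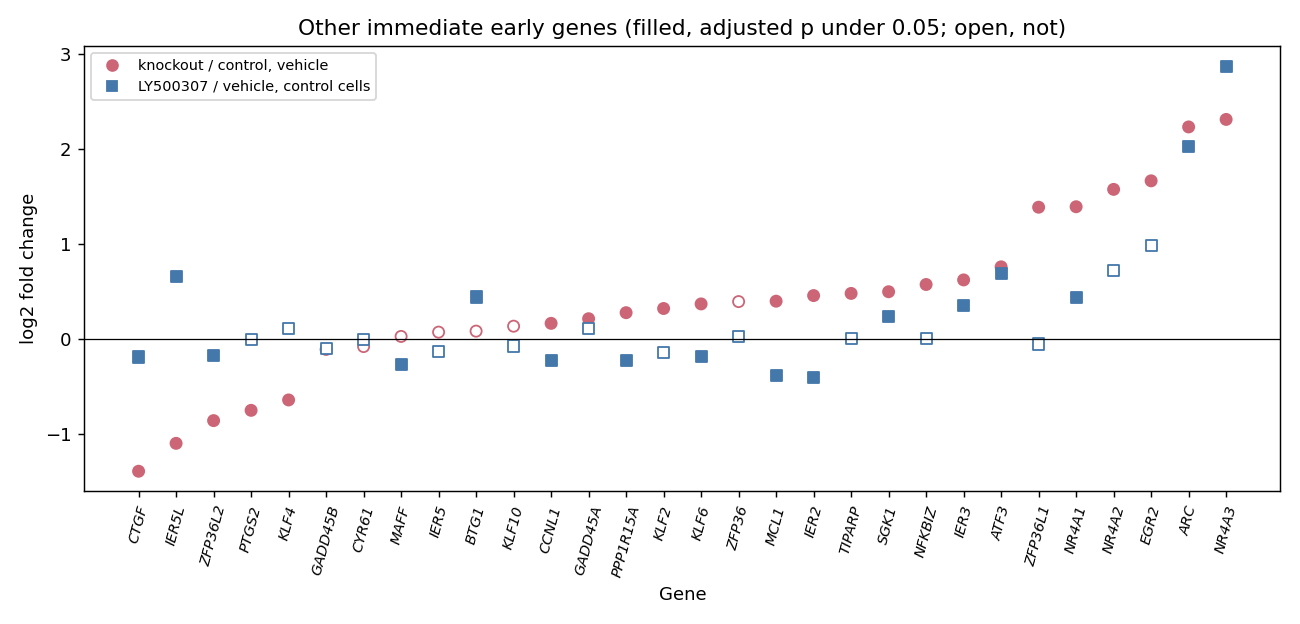
Log2 fold change of the 30 tested other immediate early genes, ordered by the change with knockout in vehicle (circles) and shown with the change with LY500307 in control cells (squares); filled symbols have an adjusted p under 0.05 in edgeR's quasi-likelihood test. With knockout 18 filled circles lie above 0 and 5 below; both comparisons use the vehicle-treated control libraries, so the 2 series of points are not independent.

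Factors that act with or on the members changed in both directions, and each count for knockout in vehicle is to be read against the 64.0% of all tested genes that passed (median log2 change -0.01), and each for LY500307 in control cells against 26.3% (median 0.01). Of 14 tested bZIP factors, partners or relatives of FOS and JUN, 4 rose (CREM, ATF7, ATF3 and ATF2) and 1 fell with knockout in vehicle (median 0.03). ATF3, a stress-induced partner of JUN, went from 3.07 ± 0.60 to 5.22 ± 0.24 CPM and CREM, a cyclic AMP responsive factor, from 31.6 ± 1.1 to 52.2 ± 2.2 CPM. With LY500307 in control cells 1 of the 14 rose, ATF3 (4.96 ± 0.45 CPM), and 4 fell, among them ATF4, from 251 ± 3.4 to 208 ± 4.3 CPM, and MAFF, from 79.7 ± 2.5 to 66.5 ± 0.17 CPM. The call for ATF3 with LY500307 was lost without replicate 2 of the vehicle-treated (edgeR adjusted p = 0.103) or of the LY500307-treated controls (adjusted p = 0.0562). A list of 9 held SRF, the ternary complex factors ELK1, ELK3 and ELK4, the coactivators MKL1 and MKL2, and also CREB1, ETS1 and ETS2. Of these 9, 7 rose and 1 fell with knockout in vehicle (median 0.22), beside 30.7% and 33.3% of all tested genes. ELK1, a ternary complex factor, went from 71.7 ± 4.2 to 90.2 ± 2.9 CPM, ETS2 from 115 ± 1.1 to 152 ± 3.7 CPM and ELK3 from 190 ± 0.55 to 221 ± 16 CPM, whereas MKL2, a coactivator of the serum response factor, fell from 31.6 ± 0.68 to 18.6 ± 0.42 CPM. In control cells, LY500307 lowered 3 of the 9 (MKL2, ELK3 and ELK4), and the others did not pass; the calls for ELK3 and ELK4 were lost when libraries were scaled by their totals (edgeR adjusted p = 0.174 and 0.131). The ELK3 call was also lost without either vehicle-treated control (adjusted p = 0.0729 and 0.0641) or LY500307-treated control replicate 2 (adjusted p = 0.117), and that of ELK4 without vehicle-treated control replicate 1 (adjusted p = 0.179) or either LY500307-treated control (adjusted p = 0.0987 and 0.0571).

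Of 20 tested kinases upstream of FOS and JUN, 8 rose and 9 fell with knockout in vehicle (median log2 change -0.02), beside 64.0% of all tested genes that passed (30.7% higher and 33.3% lower). MAPK13, a p38 kinase, rose from 5.74 ± 0.69 to 30.1 ± 2.9 CPM, RPS6KA1, a kinase below ERK, from 35.5 ± 0.47 to 59.6 ± 3.8 CPM and MAP2K2, a kinase of ERK, from 95.01 ± 6.1 to 142 ± 0.091 CPM. MAPK9, a JUN kinase, fell from 73.0 ± 6.4 to 38.9 ± 0.75 CPM. With LY500307 in control cells 3 rose and 3 fell, beside 26.3% of all tested genes; RPS6KA4 went from 161 ± 6.3 to 127 ± 1.0 CPM. Of the calls there, MAPK13 (8.31 ± 1.3 CPM) was lost without replicate 2 of the vehicle-treated (edgeR adjusted p = 0.0806) or LY500307-treated controls (adjusted p = 0.119), and RPS6KA1 (42.0 ± 2.1 CPM) without either vehicle-treated control or LY500307-treated control replicate 2 (adjusted p = 0.0923, 0.0605 and 0.177).

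Among 8 tested relatives of DUSP1, 4 rose and 2 fell with knockout in vehicle, a share near the 64.0% of all tested genes that passed (median 0.11). DUSP10, a phosphatase of p38 and JUN kinases, rose from 6.61 ± 0.79 to 28.0 ± 0.82 CPM, and DUSP4, a nuclear phosphatase of MAP kinases, fell from 80.5 ± 0.44 to 50.6 ± 1.5 CPM. DUSP2 and DUSP8 rose from 0 and 0.149 ± 0.030 CPM to 1.97 ± 0.43 and 0.817 ± 0.16 CPM. In control cells given LY500307, 5 rose and 1, DUSP7, fell (81.3 ± 7.6 to 63.4 ± 1.4 CPM), beside 26.3% of all tested genes (12.3% higher and 14.0% lower). DUSP10 rose to 9.62 ± 0.48 and DUSP4 to 92.9 ± 1.5 CPM; the call for DUSP4 was lost without vehicle-treated control replicate 2 or LY500307-treated control replicate 1 (edgeR adjusted p = 0.0561 and 0.0699). Of the EGR corepressors, NAB2 rose with knockout in vehicle, from 28.6 ± 1.0 to 33.6 ± 0.020 CPM, a call lost without vehicle-treated control replicate 1 (edgeR adjusted p = 0.0936). NAB1 did not pass with knockout in vehicle and fell with LY500307 in control cells, from 42.6 ± 2.2 to 36.6 ± 4.0 CPM, a call lost without vehicle-treated control replicate 1 or LY500307-treated control replicate 2 (edgeR adjusted p = 0.257 and 0.432), with DESeq2 (0.0930) and with library totals (0.168).

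Genes with known AP-1 sites did not move in 1 direction. Of 21 tested, 10 rose and 9 fell with knockout in vehicle, beside 64.0% of all tested genes that passed, with a median log2 change of -0.01 that equalled that of all tested genes to 2 decimals. MMP3, a matrix protease, rose from 33.0 ± 2.9 to 2429 ± 9.5 CPM, SPP1, the secreted phosphoprotein osteopontin, from 11.8 ± 4.8 to 186 ± 5.8 CPM and HMOX1, a haem-degrading enzyme, from 9.49 ± 0.99 to 79.9 ± 3.9 CPM. With LY500307 in control cells 8 rose and 3 fell, beside 26.3% of all tested genes (12.3% higher and 14.0% lower). HMOX1 rose to 21.1 ± 3.0 CPM, MMP3 to 56.9 ± 14 CPM and IL8, a chemokine, from 308 ± 18 to 406 ± 41 CPM. Of 14 tested genes with known EGR1 sites, 5 rose and 6 fell with knockout in vehicle (median -0.12), beside 30.7% and 33.3% of all tested genes. With LY500307 in control cells 5 rose and the other 9 did not pass (median 0.15), beside 12.3% higher and 14.0% lower of all tested genes. F3, the tissue factor gene, rose with knockout from 20.5 ± 0.29 to 59.4 ± 3.9 CPM and CDKN1A, a cell cycle inhibitor, from 7.72 ± 1.5 to 32.0 ± 0.034 CPM. The matrix genes FN1 and THBS1 fell with knockout, from 3422 ± 76 to 890 ± 10 and from 200.5 ± 6.6 to 21.3 ± 1.1 CPM. With LY500307 in control cells THBS1 rose to 254 ± 6.8 CPM and GDF15, a stress-induced cytokine, from 1.73 ± 0.21 to 3.62 ± 0.12 CPM.

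The genes whose log2 level followed 3 of the members most closely over the 8 libraries were listed as a description among 10253 genes whose mean level reached 5 CPM. For EGR1 they were SLC27A4 (Pearson r = 0.996), CASC3, CERS2, USP24 and ASNS, and 12.6% of the genes had an r above 0.9. For FOSL1 they were CDK9 (r = 0.951), FIBP, TMEM8B, SNX3 and SENP3, and for JUN ZNF202 (r = 0.946), PER2, GATAD1, DAZAP1 and SRRT. An r above 0.9 was reached by 0.0975% of the genes for FOSL1 and by 0.166% for JUN. The 8 points come from 4 groups, so genes that separate the same groups share a high r.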

How the data were processed

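Single-end RNA reads of 50 bp were turned by the authors into whole-number read counts per gene symbol, deposited as 1 table per library. The submitters' processing notes name hg19 as the build and, as tools, HTSeq, TopHat2 2.0.8b and bcl2fastq. The series text, part of the labels, speaks of combined raw reads at the alignment step. Each library nevertheless has its own table, and the 2 tables of a group differ beyond sampling noise (a chi-square of 3.12 to 4.45 per degree of freedom), so all 8 were kept. Neither the strand setting nor the annotation release used for counting is stated there. The counter's summary lines stayed out of library sizes; reads outside genes were 10.7% to 12.8%. Unused sample columns numbered 0.

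Counts were fitted with edgeR 4.0.16 (limma 3.58.1, R 4.3.3). filterByExpr with a minimum count of 10 kept 13498 of the 23228 genes listed; 5520 of those listed had no count. Libraries were scaled by TMM, and 1 quasi-likelihood model with 4 group means was fitted to the 8 libraries (4 residual degrees of freedom, prior 30.1, biological coefficient of variation 3.95%). The 4 pairwise comparisons and the interaction were tested two-sided with Benjamini-Hochberg adjustment at 0.05. The standard error of a log2 change is its size divided by the square root of F, and intervals are at 95%. On simulated counts of 13498 genes for knockout against control in vehicle, 83% of 100 genes changed by 0.5 on the log2 scale and 99% of those changed by 1 were recovered, with 10 false calls. Only 200 genes were changed there, up and down alike, whereas 64.0% of tested genes passed in the data. The simulation therefore does not measure errors where most genes change.

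The members and gene lists were chosen with earlier results of these data known. Described from each list were up to 4 genes that passed with knockout in vehicle and up to 3 that passed with LY500307 in control cells, those with the lowest p. Results of some genes so chosen are not reported here. Lengths and positions came from GENCODE release 44 lifted to hg19, and promoters from the RefSeq table of GRCh38.p14, placed in hg19 by exact match. FOSL1 and EGR3 promoters were not used here. The level used for likeness was log2 of CPM plus 0.5. Replicate numbers were not treated as pairs in the main fit. Deviations of same-numbered libraries correlated weakly, at 0.04 to 0.11 over pairs of groups. All these values were positive, so shared variation is not excluded. With a replicate block as an alternative more genes passed in every comparison, for the interaction 643 against 218. Alternatives were DESeq2 1.42.0, other scalings, no filter, the compared groups alone, a replicate block and leaving out each library.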

Additional observations from a re-analysis of the deposited data

Results flagged for a closer look

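JUN responded to LY500307 differently in the 2 populations: its log2 change was higher in knockout than in control cells by 0.37 (edgeR interaction test, adjusted p = 0.000966). LY500307 lowered JUN in control cells, in both libraries, and in knockout cells the treated and vehicle libraries overlapped. Over the 13 alternatives the difference ran from 0.29 to 0.43, with an adjusted p of at most 0.0201.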

How the results depend on the processing

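Of 1573 values recomputed under an alternative, 1469 kept their direction and side of the threshold (for counts and shares, stayed close to the reported value). FOS, FOSB, JUNB, JUND and EGR1 passed as higher with knockout in all 14 alternatives under both treatments. The interaction counts moved most: 218 genes and 1 member became 350 and 2 with no filter and 643 and 2 with the replicate block, where EGR1 also passed (log2 0.34, adjusted p = 0.0124) and JUND passed as lower with LY500307 in knockout cells (log2 -0.20, adjusted p = 0.0426). The replicate block changed no other member's call, and the cause of these moves was not tested. Some of the 14 alternatives leave out a library of a group that is not compared. These can hardly move a pairwise change and are weak checks of it. Leaving out each library in turn gave 93 to 256 genes and 1 to 2 members for the interaction, 2161 to 3791 genes for LY500307 in control cells and 1413 to 2737 in knockout cells; these fits have fewer samples, and the lone library of a group is assumed to vary like the others. Signs turned only for values near 0. The log2 interaction of FOSL2 became -0.0067 with DESeq2 size factors, -0.0087 with library totals, -0.0055 with no filter and -0.0067 with DESeq2. With library totals FOSL1 became 0.0098 for knockout in vehicle and 0.016 for LY500307 in knockout cells. Without 1 library the log2 values ran as follows: for the interaction, FOSL2 -0.10 to 0.092 and JUNB -0.10 to 0.14; for LY500307 in control cells, FOSL2 -0.0015 to 0.067 and JUND -0.084 to 0.17; for LY500307 in knockout cells, FOSL1 -0.096 to 0.0090, FOSL2 -0.063 to 0.13 and JUN -0.051 to 0.085; for knockout in vehicle, FOSL1 -0.088 to 0.013; and for knockout under LY500307, FOSL2 -0.14 to 0.040. By counts without length, FOSL1 was 80.2%, 79.2%, 80.2% and 76.4% of the FOS family and JUN 91.0%, 84.9%, 88.2% and 85.4% of the JUN family (vehicle control, vehicle knockout, LY500307 control, LY500307 knockout). With canonical transcript lengths, an alternative chosen after seeing the data, FOSL1 was 92.8% in vehicle knockout and JUN 85.4%, 76.5%, 81.2% and 77.1%. Depth limits EGR3, and FOS in control cells rests on 69 to 108 counts per library.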
